A study of Mus musculus with 26 samples.

Results

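The genes described here encode the machinery of the early secretory pathway, from the signal recognition particle (SRP) that brings ribosomes to the endoplasmic reticulum (ER) to the golgins of the Golgi apparatus. They were chosen by gene name alone (symbols that begin with Sec and a number, Tmed, Trappc, Srp, Spcs, Golga or Pdia, together with the Cop, Ssr, Cog, Rpn and Arf families), and 88 of the 10104 transcripts listed for either cell type matched. Of these, 86 were listed for oligodendrocyte progenitor cells (OPCs), 88 for oligodendrocytes (OLs), and 85 had a half-life in all 5 replicates. Srp19 and Trappc2l were listed for OLs and not for OPCs, and Cog7 had no half-life in OPCs. The pattern also takes in Sec14l1 and Sec14l2, lipid-binding proteins that share only the prefix, and it leaves out Arcn1, the delta subunit of the COPI coat.

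The cells were murine. OPCs of the 129S/SvEv strain were derived from epiblast stem cells, and OLs were obtained from such OPCs by differentiation. The groups share their genotype and differ in medium: OPCs were grown with the mitogens bFGF and PDGFA, whereas OLs received thyroid hormone (T3) together with noggin, IGF-1, NT3 and cyclic AMP, so that the effect of differentiation and that of each factor cannot be told apart. The study states that undifferentiated OPCs remain in the OL cultures. In both cell types RNA was labelled for 24 h with 5-ethynyluridine (5-EU), a uridine analogue to which biotin can be coupled, and was then chased with uridine. The labelled fraction was pulled down and sequenced at 0, 1, 2, 4 and 6 h of chase in 3 OPC and 2 OL replicates, which gave 15 and 10 libraries. A sample of OPCs processed with no biotin was not analysed here.

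Proteins that are secreted or sit in membranes are threaded into the ER by the Sec61 channel while they are translated. In the ER their signal peptide is removed, sugars are attached and disulfide bonds are formed. COPII vesicles then carry them towards the Golgi, COPI vesicles carry escaped ER residents back, and the TRAPP and COG complexes and the golgins tether vesicles to the membranes they fuse with. OLs are known for the large amounts of myelin membrane, lipid and membrane protein they send through this route.

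The labels were checked against marker genes. The 10 oligodendrocyte markers, Mbp among them, summed to 39.2 to 57.5 FPKM (sequenced fragments relative to transcript length and library size) in the OPC replicates at 0 h and to 6443 and 2983 FPKM in the OL replicates, and all 3 that were listed for both cell types were higher in OLs. Of 6 OPC markers, Pdgfra, Gpr17 and Sox6 were higher in OLs and 2 did not pass the test. The sum of the 6 was 261 to 379.7 FPKM in OPCs and 582 to 612 FPKM in OLs. Gpr17 alone made up 5.00 to 6.61 FPKM of this in OPCs and 299 to 323 FPKM in OLs, and the sums of the other 5 overlapped, with 255 to 375 FPKM in OPCs and 283 to 289 FPKM in OLs. Of 6 astrocyte markers 5 were listed, with sums of 230.0 to 275 FPKM in OPCs and 434 to 513 FPKM in OLs, and S100b alone was called (higher) among the 3 tested. S100b made up 9.07, 10.5 and 9.11 FPKM of these sums in OPCs and 290 and 160 FPKM in OLs. Aqp4 was listed in neither cell type. Of 5 neuronal markers 3 were listed, with none of 2 called, sums of 81.8 to 183 FPKM in OPCs and 188 to 203 FPKM in OLs, and no value for Rbfox3 or Snap25. Cycling markers summed to 191 to 319.8 FPKM in OPCs and to 21.1 to 53.5 FPKM in OLs, and Ccnb1 was called lower among the 3 tested. The part of residual OPCs and of other cells in the results below was not tested.

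Half-lives were deposited for each replicate in hours, with longer estimates set to a ceiling of 6 h. The secretory genes were on the long-lived side of the transcriptome, and those below the ceiling were spread over the range from 0.587 h upwards. The median level of the secretory genes at 0 h was 39.5 FPKM in OPCs, beside 18.4 FPKM for all transcripts. In OLs it was 36.5 FPKM, beside 16.3 FPKM. Level and half-life percentile were correlated, as given below, and the part of level here was not tested. In all 5 replicates 27 of 85 genes (31.8%) stood at the ceiling, beside 16.1% of the 8112 transcripts with 5 half-lives. The ceiling means a half-life of 6 h or more and not that decay was absent: 5 of the 27 (Arf3, Arf4, Sec61a2, Tmed10 and Trappc2) fell during the chase in OPCs by the slope test described below, and none did in OLs. At the ceiling in all 3 OPC replicates were 29 genes (34.1%), beside 17.8% of all, and in both OL replicates 40 genes (47.1%), beside 31.7% of all. The median half-life of the 85 genes was 5.10, 5.24 and 6.00 h in OPC replicates 1, 2 and 3, and 6.00 h in both OL replicates, whereas the median of all transcripts was 2.35, 2.08 and 2.83 h in OPCs and 4.54 and 4.44 h in OLs. With the 6 h libraries left out of the half-life fits, 16 genes (18.8%) stood at the ceiling beside 9.07% of all transcripts. When every library was scaled to the mean decay curve, 19 genes (22.4%) did, beside 14.8%. Leaving out any of the 5 replicates gave 27 to 32 genes.

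The ceiling hides differences above 6 h, and all members at it share a rank. A percentile of each half-life among the transcripts of its own replicate was therefore given beside the hours. It places each gene among the other transcripts of its replicate, but a factor on single chase libraries can still move it through the fits and the ties at the ceiling. The median 5-replicate percentile of the secretory genes was 70.5 as deposited and 72.4 when every library was scaled to the mean decay curve. The median percentile of the 85 genes stood at 72.4, 72.9 and 84.2 in OPC samples and at 78.8 and 80.6 in OL samples, against 50 for all transcripts. The roles differed in their order. Genes of the Sec61 channel, COPI, the disulfide isomerases and the signal peptidase and oligosaccharyltransferase had medians at the ceiling in every replicate. COG genes had the lowest median percentile of the roles in all 3 OPC replicates, with 12.6, 30.7 and 15.3. In OLs they stood at 32.5 and 38.5, and Sec22 genes (26.5, OL replicate 1) and golgins (36.8, OL replicate 2) were lowest.

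**Figure D1:**
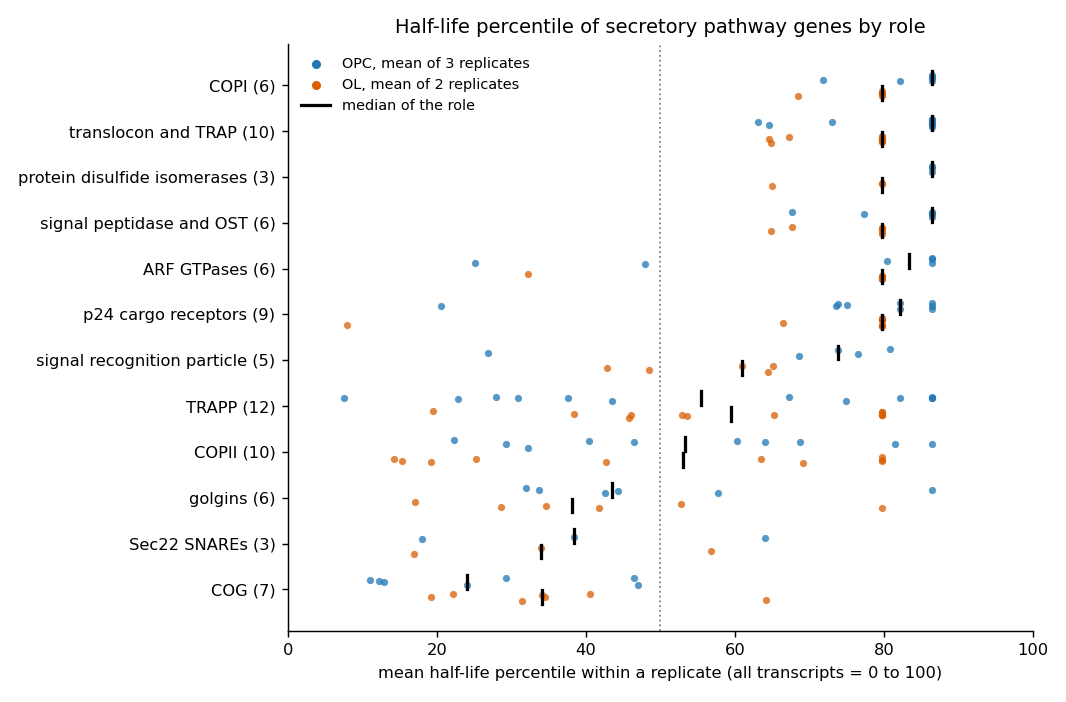
Mean half-life percentile (x axis, 0 to 100 among all transcripts of a replicate) of each secretory gene, by role (y axis, number of genes in parentheses), averaged over 3 OPC replicates (blue) or 2 OL replicates (orange), with the median of each role as a black bar and a dotted line at the median of all transcripts. Translocon, COPI and disulfide isomerase genes pile up at the ceiling on the right, and COG genes sit mostly left of the dotted line.

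The level of labelled RNA kept during the chase set the same roles apart. At 6 h the median transcript kept 14.4%, 11% and 17.7% of its 0 h FPKM across the OPC replicates, and OLs kept 31.5% and 36.6%. The median secretory gene kept 29.5%, 27.6% and 39.2% in OPCs and 40.6% and 60.1% in OLs, above the median of all transcripts in each of the 5 replicates. COG genes kept 9.33%, 1.55% and 6.15% in OPCs, below the median of all. Genes of the Sec61 channel and the translocon-associated protein (TRAP) complex kept 61.0%, 90.2% and 89.1%. In OPCs at 6 h, 7, 11 and 3 of the 86 genes were listed at 0 FPKM in replicates 1, 2 and 3 (8.14%, 12.8% and 3.49%, beside 15.7%, 21.6% and 16.4% of all transcripts), and in OLs none of the 88 was at 0 in any library. The secretory genes together held 1.14% to 1.26% of the summed FPKM in OPCs at 0 h and 1.25% to 1.39% in OLs.

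**Figure D2:**
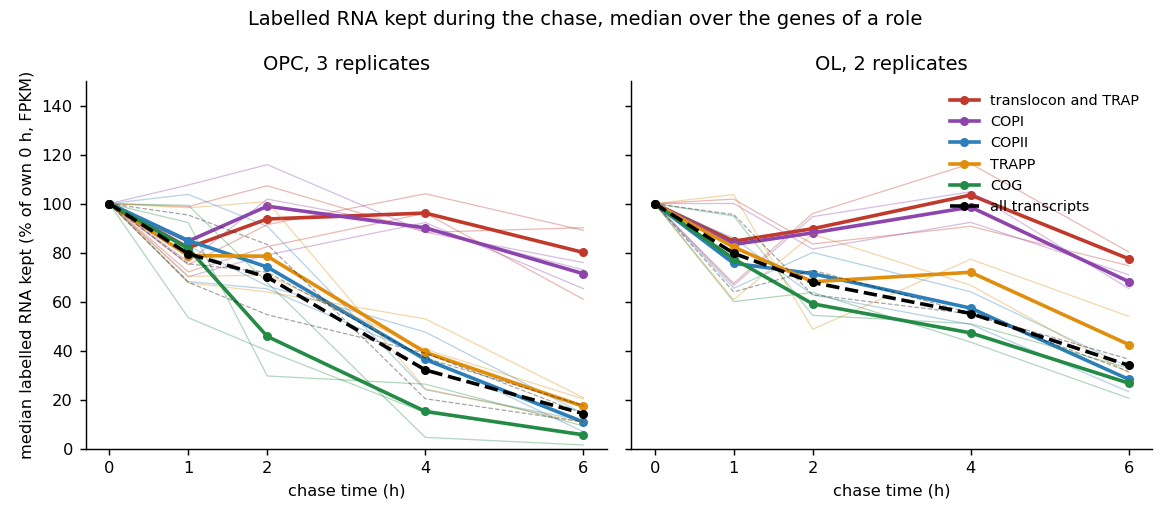
Labelled RNA kept during the chase (y axis, median over the genes of a role, percent of the same replicate's 0 h FPKM on the spike-in scale) against chase time (x axis, h) in OPCs (left, 3 replicates) and OLs (right, 2 replicates). Thin lines are replicates, thick lines their mean, and the dashed black line is the median of all transcripts; translocon and COPI genes stay high while COG genes in OPCs end at 1.55% to 9.33%.

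The SRP binds the signal sequence as it leaves the ribosome and pauses translation. None of its 5 genes with 5 half-lives was at the ceiling in all replicates. Srp9, the highest of them at 0 h with 50.3, 52.1 and 49.7 FPKM in OPCs and 51.9 and 37.5 FPKM in OLs, had half-lives of 4.76, 6.00 and 6.00 h in OPCs and 4.33 and 6.00 h in OLs. The cell types overlap. Srp68, which with Srp72 forms a heterodimer within the particle, lay at chr11:116245166-116274217 on the minus strand (GRCm38). Its half-life was 1.42, 1.96 and 1.96 h in OPCs and 3.88 and 3.66 h in OLs, so that every OL value was above every OPC value, and adjusted p was 0.084 (limma). Srp72 was longer-lived, at 5.34, 3.25 and 6.00 h in OPCs and 4.49 and 6.00 h in OLs.

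Genes of the Sec61 channel and of TRAP, a complex beside the channel that helps some signal sequences to open it, were mostly long-lived. At the ceiling in all 5 replicates were 7 of 10, namely Sec61a1, Sec61a2, Sec61b, Sec61g, Ssr2, Ssr3 and Ssr4. Ssr3, the gamma subunit of TRAP, had the highest level of the group at 0 h, with 273, 263 and 262 FPKM in OPCs and 293 and 233 FPKM in OLs. At 6 h it kept 60.0%, 91.1% and 102% of that in OPCs and 91.8% and 74.5% in OLs. The 3 genes below the ceiling in some replicate were Ssr1, the alpha subunit of TRAP, and Sec62 and Sec63, which assist the channel in post-translational import. Ssr1 ranged from 3.73 to 6.00 h, Sec62 from 2.51 to 6.00 h and Sec63 from 2.08 to 6.00 h, with OPC and OL values overlapping in each.

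Of the 6 signal peptidase and oligosaccharyltransferase genes, Rpn1, Rpn2 and Spcs2 were at the ceiling in all 5 replicates. Rpn2, a subunit of the enzyme that transfers the sugar tree to asparagine, was the highest at 0 h (233, 182 and 203 FPKM in OPCs, 118 and 87.7 FPKM in OLs). Its labelled RNA at 6 h was 123%, 175% and 143% of 0 h in OPCs and 115% and 94.0% in OLs. Sec11a, a catalytic subunit of the signal peptidase, had the lowest value of the group, with 2.48, 3.69 and 6.00 h in OPCs and 6.00 and 5.25 h in OLs.

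Protein disulfide isomerases form and rearrange the disulfide bonds of proteins in the ER. Pdia3, Pdia4 and Pdia6 reached the ceiling in each of the 3 OPC replicates, and Pdia4 alone left it in an OL replicate, with 4.46 and 6.00 h. Pdia3 had 131, 139 and 118 FPKM at 0 h in OPCs and 142 and 148 FPKM in OLs. At 6 h its labelled RNA was 152%, 166% and 213% of 0 h in OPCs and 66.8% and 116% in OLs, and the ranges do not overlap. Pdia6 is shown with its promoter because it is the only secretory gene whose RefSeq promoter held the complete ER stress element, the letters CCAAT and CCACG separated by 9 bases, searched on both strands from 250 bases before the start site (GRCm38.p6, 74 of 88 genes matched). The element was found in 1 of 74 secretory genes (1.35%), in 0.161% of the 8089 listed transcripts with a promoter and in 0.137% of all 27025 genes. A variant with ATTGG and CCACG separated by 1 base was found in none of the 74 genes and in 0.0444% of all. In the window chr12:17266471-17266529 (plus strand) the capitals mark the element, which lies 98 to 80 bases before the start.
Pdia6: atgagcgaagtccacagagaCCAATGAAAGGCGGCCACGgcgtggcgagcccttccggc
The match is a description of letters, and whether any factor binds there was not measured.

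COPII genes, whose products form the coat of vesicles that leave the ER, were spread over the whole range. Sec13, a subunit of the outer cage, was at the ceiling in all 5 replicates, and it was the highest at 0 h (121, 82.1 and 86.9 FPKM in OPCs, 89.9 and 76.9 FPKM in OLs). Of the 4 cargo-binding Sec24 genes, Sec24b was among the 5 lowest of all 85 genes by percentile, with 1.96, 1.03 and 1.60 h in OPCs and 1.85 and 2.06 h in OLs. Sec24c had 2.23, 1.96 and 2.18 h in OPCs and 6.00 and 4.23 h in OLs, with no overlap (adjusted p = 0.068, limma). Sec31a, which forms the cage with Sec13, had 3.61, 3.62 and 4.29 h in OPCs and 5.99 and 6.00 h in OLs. Sec23a, of the inner coat, was at 5.18, 6.00 and 6.00 h in OPCs and 6.00 h in both OL replicates.

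The p24 proteins (Tmed genes) are cargo receptors that cycle between the ER and the Golgi. Tmed3, Tmed7 and Tmed10 were at the ceiling in all 5 replicates, and Tmed1, Tmed2, Tmed5 and Tmed9 in both OL replicates. Tmed7 was the highest at 0 h (111, 96.7 and 93.6 FPKM in OPCs, 145 and 125 FPKM in OLs). Tmed8, a more distant relative, stood apart, with 1.65, 1.18 and 1.71 h in OPCs and 1.32 and 1.8 h in OLs, and it kept 4.46% to 24.3% at 6 h in OPCs and 4.84% and 11.3% in OLs.

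COPI genes, the coat of retrograde vesicles, were at the ceiling in all 5 replicates for 4 of 6, Copb2, Cope, Copg1 and Copz1. Copz1 had the highest level (317, 204 and 276 FPKM in OPCs, 203 and 169 FPKM in OLs) and kept 68.3% to 103% at 6 h in OPCs. Copb1 was the shortest-lived, at 5.43, 2.51 and 6.00 h in OPCs and 5.70 and 6.00 h in OLs. ARF GTPases recruit this coat. Arf3, Arf4 and Arf5 were at the ceiling throughout and Arf1 in 4 of the replicates, with 4.46 h in OPC replicate 1. Arf4 was the highest by the 5-replicate mean (215, 192 and 184 FPKM in OPCs, 463 and 247 FPKM in OLs, adjusted p = 0.077 by limma). Arf6, which acts at the plasma membrane, had 1.39, 1.68 and 2.02 h in OPCs and 2.64 and 3.33 h in OLs.

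The Sec22 genes encode SNAREs or related proteins of ER and Golgi membranes, and none was at the ceiling in any replicate. Sec22b was the highest (49.7, 39.6 and 45.3 FPKM in OPCs, 47.6 and 43.0 FPKM in OLs) and the longest-lived, with 3.66, 3.33 and 4.50 h in OPCs and 5.95 and 5.23 h in OLs. Sec22a had 0.968, 1.45 and 1.96 h in OPCs and 2.04 and 2.12 h in OLs.

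TRAPP genes, which encode tethers that also activate Rab GTPases, were mixed. Trappc1, Trappc2 and Trappc9 were at the ceiling in all 5 replicates, and Trappc1 was the highest at 0 h (71.5, 55.5 and 64.3 FPKM in OPCs, 53.2 and 34.4 FPKM in OLs). Trappc5 had the lowest mean percentile of all 85 genes, with 0.587, 1.51 and 1.05 h in OPCs and 1.40 and 2.90 h in OLs. Trappc10 had 1.31, 1.96 and 1.90 h in OPCs and 6.00 and 4.61 h in OLs, with no overlap (adjusted p = 0.074, limma).

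COG is a tether of 8 subunits for vesicles within the Golgi, and all 8 genes were listed. Of the 7 with 5 half-lives, none was at the ceiling in an OPC replicate. Cog4 was the highest at 0 h (22.6, 21.6 and 23.6 FPKM in OPCs, 27.3 and 21.3 FPKM in OLs), with 4.77, 1.96 and 2.12 h in OPCs and 4.27 and 6.00 h in OLs. Cog8 was among the 5 lowest by percentile, at 1.01, 1.3 and 1.44 h in OPCs and 1.57 and 2.71 h in OLs. Cog2, Cog3, Cog5 and Cog8, 4 of the 7, had both OL half-lives above all 3 OPC half-lives, as did 35.9% of all 8112 transcripts.

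Golgins are long coiled-coil tethers of the Golgi. Golga7 is a small palmitoyltransferase partner rather than a coiled-coil tether. It was at the ceiling in all 5 replicates and had the highest level of the group (88.4, 69.6 and 83.2 FPKM in OPCs, 164 and 114 FPKM in OLs). The other 5 ranged from 1.67 to 4.54 h in OPCs and from 1.43 to 5.74 h in OLs. Among the names that only share a prefix, Sec14l1 was the higher at 0 h (51.6, 36.6 and 46.6 FPKM in OPCs, 27.4 and 38.9 FPKM in OLs) and had 2.74, 6.00 and 2.96 h in OPCs and 6.00 h in both OL replicates.

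Many of the short OPC half-lives are the same number. In OPC replicate 2, 17 of 85 secretory genes had 1.96 h (1.957 h within 0.001 h), 6 of them COG or Sec24 genes and 4 of them golgins, and so did 25.6% of all transcripts of that replicate. The value was shared by 2.18% of transcripts in OPC replicate 1, 7.45% in OPC replicate 3, 0.474% in OL replicate 1 and 1.38% in OL replicate 2. It is the least-deviation solution wherever the levels at 1 and 2 h lie above the curve and those at 4 and 6 h below it, whatever their distance, which held for 98.4% to 100% of the transcripts with this value. Agreement between replicates at this number is therefore not a measure of their spread.

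The half-life comparison asked whether the secretory mRNAs are more or less stable in OLs than in OPCs. On log2 half-life (limma, adjusted over 8112 transcripts), 1 of 85 genes passed the test as longer in OLs, beside 3.39% of all transcripts, and none as shorter, beside 0.148%. At an unadjusted p under 0.05 there were 13 of 85 secretory genes (15.3%), beside 23% of all transcripts. The median log2 difference was 0.14 over the secretory genes and 0.37 over all transcripts. Both medians include genes held at the ceiling in every replicate, whose difference is 0, and among transcripts under the ceiling in all 5 replicates the order was the opposite, with 0.71 over 24 secretory genes and 0.56 over 3692 transcripts. After centring each replicate on its median, the medians over 85 genes and 8112 transcripts were -0.76 and -0.53. With every library scaled to the mean decay curve both were 0. Leaving out single replicates gave 0.01 to 0.14 over the secretory genes and 0.27 to 0.46 over all. The called gene was Golga1, a golgin of the trans-Golgi (chr2:39016155-39065541, minus strand), with 1.86, 1.96 and 2.07 h in OPCs and 3.00 and 3.23 h in OLs, a log2 difference of 0.67 and adjusted p = 0.041 (limma). Its mean percentile was 33.7 in OPCs and 34.6 in OLs, and after centring each replicate on its median the log2 difference was -0.23 (adjusted p = 0.58, limma). That value still lay above the centred median of all transcripts, -0.53, as 0.67 lay above 0.37 before centring. Refitted without the 6 h libraries, the log2 difference of Golga1 was -0.12, beside a median of 0.23 over all transcripts. Both OL values lay above all 3 OPC values in 20 of 85 genes (23.5%), beside 35.9% of all transcripts, and below them in none, beside 2.01%. At the 6 h ceiling no difference can be seen, and this held for 27 of the 85 genes. Golga1 did not pass under any of the 10 alternatives tried, and where genes passed they were others. Leaving out OPC replicate 3 gave Sec31a and Golga2 as longer. Without OPC replicate 1 Srp68 and without OPC replicate 2 Sec14l1 was longer. Without either OL replicate each gene has 1 OL half-life, and the spread comes from the OPC replicates alone, so calls from those fits are not given. P-values of the half-life and 0 h tests measure the spread between these replicates, which the study describes as biological. Those of the slope tests below measure the scatter of single chase libraries around fitted lines, and not how slopes vary between replicates.

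Labelled RNA at 0 h reports what was made and kept during the 24 h of labelling. On log2(FPKM + 1), 8 of 86 genes (9.30%) were higher in OLs, beside 13.8% of 8177 transcripts, and 8 (9.30%) were lower, beside 15.8%. The OPC and OL values come from separate tables of unscaled FPKM, so each is a share of its library, and in these bulk samples fewer cells of a type and less RNA per cell cannot be told apart. By role, 3 of 6 signal peptidase and oligosaccharyltransferase genes, 2 of 9 p24 genes, 1 of 10 translocon genes, 1 of 3 disulfide isomerase genes and 1 of 12 TRAPP genes were lower. Higher were 2 of 8 COG, 2 of 12 TRAPP, 2 of 5 SRP, 1 of 6 golgin and 1 of 10 translocon genes, so that the translocon and TRAPP each had genes in both directions.

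Trappc4, a core TRAPP subunit, was lowered most, with 53.1, 49.1 and 44.2 FPKM in OPCs and 19.9 and 18.3 FPKM in OLs, a log2 difference of -1.31 ± 0.21 (SE, adjusted p = 0.0035, limma). Tmed3 had 136, 70.5 and 114 FPKM in OPCs and 39.9 and 47.1 FPKM in OLs (-1.23 ± 0.30). Rpn2 differed by -1.01 ± 0.24 and Rpn1, its partner in the oligosaccharyltransferase, by -0.88 ± 0.25, from 129, 81.1 and 98.9 FPKM to 51.3 and 57.9 FPKM. Tmed1 fell from 66.8, 45.3 and 51.8 FPKM in OPCs to 24.3 and 29.3 FPKM in OLs (-0.99 ± 0.25). Sec61a1, the pore of the channel, had 196, 136 and 160 FPKM in OPCs and 96.4 and 79.6 FPKM in OLs (-0.88 ± 0.24). Pdia6 had 129, 89.7 and 108 FPKM in OPCs and 53.5 and 63.8 FPKM in OLs (-0.87 ± 0.24). Sec11a had 57.1, 45.1 and 46.5 FPKM in OPCs and 27.1 and 29.8 FPKM in OLs (-0.77 ± 0.22). Adjusted p ranged from 0.0035 to 0.034 over these 8 genes (limma). Both OL values lay below all 3 OPC values in these 8 genes, which the test had already selected, and in 25 of the 86 genes (29.1%), beside 31.4% of all transcripts.

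Golga5, a golgin, was raised most, from 3.41, 5.07 and 3.10 FPKM in OPCs to 10.6 and 12.8 FPKM in OLs, a log2 difference of 1.40 ± 0.25 (SE, adjusted p = 0.0055, limma). Sec62 rose from 6.96, 14.9 and 10.6 FPKM to 24.1 and 26.3 FPKM (1.2 ± 0.31), against the direction of Sec61a1. Srp54c and Srp54a differed by 1.19 ± 0.31 and 1.05 ± 0.28. These are near-identical copies of the GTPase subunit of SRP, and the reads of each cannot be told apart with certainty. Trappc2 had 21.8, 18.4 and 15.3 FPKM in OPCs and 49.0 and 32.9 FPKM in OLs (1.09 ± 0.26). Trappc13 had 27.1, 30.3 and 22.7 FPKM in OPCs and 50.0 and 42.3 FPKM in OLs (0.77 ± 0.23). Cog5 had 7.87, 10.5 and 9.62 FPKM in OPCs and 15 and 17.2 FPKM in OLs (0.73 ± 0.22), and Cog6 had 11.6, 12.6 and 13.5 FPKM in OPCs and 20.8 and 20.7 FPKM in OLs (0.69 ± 0.21). Both OL values lay above all 3 OPC values in these 8 genes, likewise selected by the test, and in 29 of the 86 (33.7%), beside 28% of all transcripts. The study matched the OL replicates to 2 of the OPC replicates without giving the numbers. With the shared replicate numbers as a block, 9 genes were higher and 4 lower, and Sec61a1, Rpn1, Pdia6, Sec11a, Trappc13, Cog5 and Cog6 no longer passed (adjusted p from 0.062 to 0.17, limma). These calls rest on few libraries: 1 gene was called higher and 1 lower without OPC replicate 3, and 13 and 8 without OPC replicate 2. Without either OL replicate 1 OL library is left, and the spread comes from the OPC replicates alone, so those counts are not given.

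**Figure D3:**
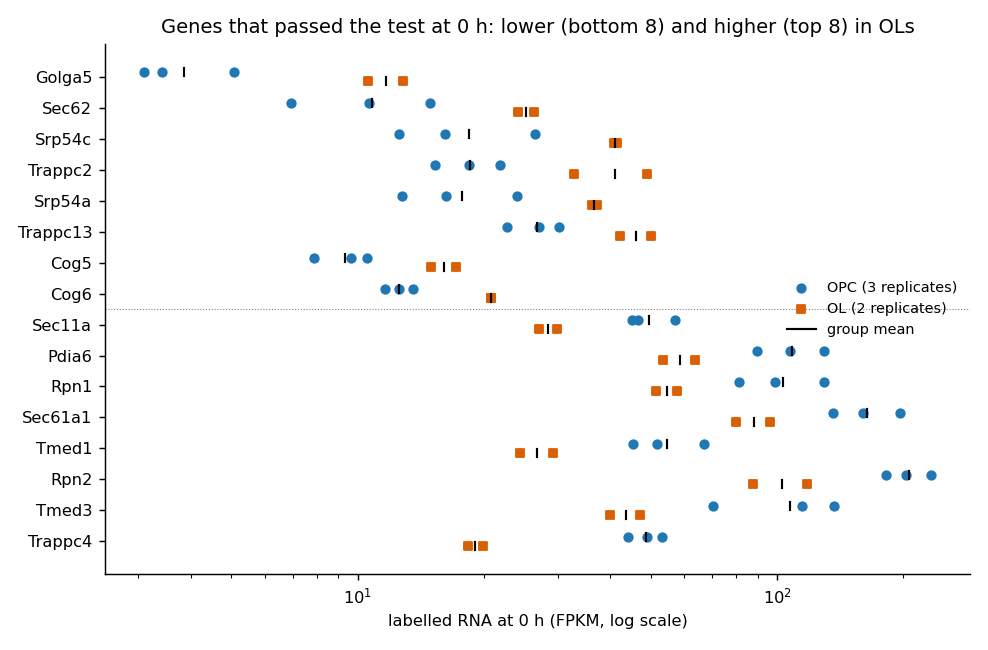
Labelled RNA at 0 h (x axis, FPKM, log scale) for the 16 secretory genes that passed the limma test, with OPC replicates as blue circles, OL replicates as orange squares and group means as black bars. The 8 genes above the dotted line are higher in OLs and the 8 below it lower, and the groups do not overlap in any of the 16.

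The slope of log2(FPKM + 1) on chase time tests the decline without the ceiling. In OPCs 58 of 86 genes fell (67.4%), beside 81.7% of 8530 transcripts, and 5 rose (5.81%), beside 4.31%. The median slope was -0.22 per h for the secretory genes and -0.38 per h for all transcripts. With a pseudocount of 0.1 FPKM in place of 1 FPKM, these medians were -0.24 and -0.52 per h. The 5 that rose on the spike-in scale were Pdia3, Rpn2, Sec61b, Sec61g and Ssr4, all ER genes, and Pdia3 (0.16 ± 0.04 per h, SE), Rpn2 (0.13 ± 0.04) and Sec61b (0.12 ± 0.05) had the most positive slopes of all members. Sec61b, the beta subunit of the channel, had 97.9%, 195% and 133% of its 0 h level at 6 h in OPCs. The steepest were Srp68 (-0.80 ± 0.07 per h), Cog2 (-0.73 ± 0.08) and Sec24c (-0.66 ± 0.06). By role, 7 of 8 COG, 8 of 10 COPII, 5 of 6 golgin, 9 of 12 TRAPP, 5 of 6 ARF, 5 of 9 p24, 3 of 3 Sec22 and 5 of 5 SRP genes fell, and so did 4 of 10 translocon, 3 of 6 signal peptidase and oligosaccharyltransferase, 2 of 6 COPI and none of 3 disulfide isomerase genes. Without OPC replicate 2 only 1 gene rose, without OPC replicate 3 there were 3, and without the 6 h libraries 2.

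In OLs 48 of 88 genes fell (54.5%), beside 68.4% of 9751 transcripts, and none rose, beside 1.5%. The medians were -0.14 per h for the secretory genes and -0.20 per h for all. The steepest were Tmed8 (-0.43 ± 0.04 per h, SE), Sec23ip, a partner of Sec23 (-0.39 ± 0.05), and Sec22a (-0.39 ± 0.05). The most positive were Trappc6a (0.12 ± 0.06), Sec11c (0.10 ± 0.06) and Trappc2l (0.05 ± 0.07), which did not pass the test. All 6 SRP genes fell, and 1 of 10 translocon genes, Ssr1. Without the 6 h libraries 25 genes fell.

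These slopes contain the decay of the whole labelled pool. Centring every chase library on the median of its replicate at 0 h moved the median slope of all transcripts by 0.44 per h in OPCs and by 0.23 per h in OLs. It left that median slope positive, at 0.06 and 0.03 per h. After centring, 47 of 86 secretory genes (54.7%) rose in OPCs, beside 39.8% of all transcripts, and 9 (10.5%) fell, beside 13.9%. In OLs 44 of 88 (50%) rose, beside 31.2% of all, and 5 (5.68%) fell, beside 13.8%.

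The difference in slope asked whether the decline itself changed with differentiation. It was shallower in OLs (a more positive slope) for 21 of 86 genes (24.4%), beside 32.1% of 8177 transcripts, and steeper (a more negative slope) for 2 (2.33%), beside 0.391%. The median difference was 0.10 per h for the secretory genes and 0.14 per h for all (0.13 and 0.22 with a pseudocount of 0.1 FPKM). The genes with the largest differences were Srp68, which changed from -0.80 per h in OPCs to -0.25 per h in OLs (difference 0.55 ± 0.09, SE, adjusted p = 0.00033, limma), and Cog2, from -0.73 to -0.26 per h (0.47 ± 0.11, adjusted p = 0.0028, limma). At 6 h Srp68 kept 2.24%, 0% and 2.14% in OPCs and 32.5% and 33.7% in OLs, and Cog2 kept 3.41%, 3.10% and 0% in OPCs and 17.1% and 30.4% in OLs. Trappc10 kept 6.01%, 3.14% and 9.19% in OPCs and 29.3% and 40.6% in OLs (difference 0.40 ± 0.08 per h), and Sec24c 2.58%, 2.73% and 11.2% in OPCs and 30.2% and 23.3% in OLs (0.39 ± 0.09 per h). In these 4 genes both OL values lay above all 3 OPC values at 6 h, as they did in 38 of the 86 genes (44.2%), beside 48.9% of all transcripts. Both lay below in 4 genes (4.65%), Pdia3, Pdia4, Rpn2 and Tmed3, beside 2.86%. By role the 21 were 4 of 8 COG, 5 of 12 TRAPP, 4 of 10 COPII, 2 of 6 golgin, 2 of 6 signal peptidase and oligosaccharyltransferase, 1 of 5 SRP, 1 of 6 ARF and 1 of 10 translocon genes, and Sec14l1. None of the 6 COPI, 3 disulfide isomerase, 9 p24 or 3 Sec22 genes was among them.

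The 2 genes that declined more steeply in OLs were both disulfide isomerases. Pdia3 changed from 0.16 per h in OPCs to -0.02 per h in OLs (difference -0.18 ± 0.06, adjusted p = 0.025, limma), and Pdia4 from 0.01 to -0.15 per h (-0.16 ± 0.06, adjusted p = 0.037, limma). Pdia4 kept 69.4%, 88.2% and 121% at 6 h in OPCs and 37.5% and 62.4% in OLs. Pdia6 had a difference of -0.12 ± 0.06 per h and did not pass the test. Neither Pdia3 nor Pdia4 passed without OL replicate 1, without OL replicate 2 or without OPC replicate 3, and Pdia3 alone did without OPC replicate 2 or without the 6 h libraries. The count of shallower genes was 5 without OL replicate 1, 3 without OL replicate 2, 12 without OPC replicate 2 and 12 without the 6 h libraries. Centring moved the median difference of all transcripts by -0.21 per h, from 0.14 to -0.07 per h. The centred median thus lay on the steeper side, and counts from this fit are not relative to it. In this fit 2 of 86 secretory genes (2.33%) were shallower in OLs, beside 4.17% of all transcripts, and 33 (38.4%) were steeper, beside 22.5%.

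**Figure D4:**
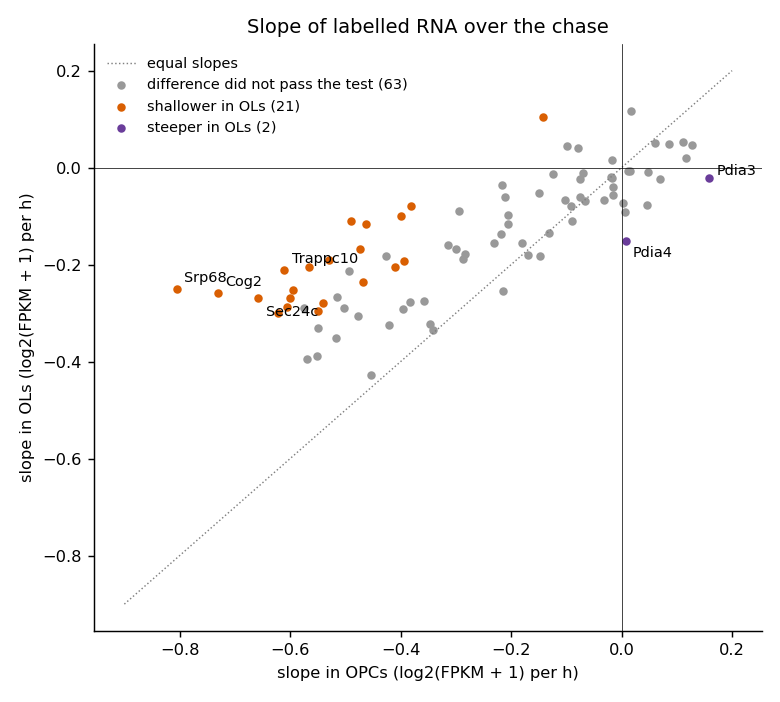
Slope of labelled RNA over the chase in OLs (y axis) against OPCs (x axis), both in log2(FPKM + 1) per h on the spike-in scale, with 1 point for each of 86 secretory genes, orange where the slope was shallower in OLs (21), purple where it was steeper (2) and grey where the difference did not pass the test. Steep OPC slopes such as that of Srp68 lie far above the dotted line of equal slopes, and Pdia3 and Pdia4 lie below it.

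Coding length and level were described beside stability. The 27 genes at the ceiling in all 5 replicates had a median coding length of 221 codons and a median 3′ untranslated region of 640 bases, and the other 58 genes with 5 half-lives had 640.5 codons and 977 bases. Over the 8112 transcripts the medians were 456 codons and 1173 bases. Across the 85 genes Spearman's rank correlation of the mean percentile with coding length was -0.44 in OPCs and -0.43 in OLs (-0.22 and -0.24 across 8101 transcripts). With the level at 0 h it was 0.76 in OPCs and 0.75 in OLs (0.45 and 0.38 across 8112 transcripts). All points share the same libraries, and the 0 h level is also the denominator of each decay curve. Long-lived genes such as Ssr3 and Copz1 were among the most abundant and short, but Copg1 (874 codons), Copb2 (905 codons) and Trappc9 (1139 codons) were long and at the ceiling, and Trappc5 (188 codons) was short and at the other end. Codon choice was summarised by the median UUU bias (UUU among phenylalanine codons), which was 46.9% in the 85 genes and 44.7% in all, the median AAA bias (AAA among lysine codons), which was 36.4% and 37.2%, and GC at the third codon position, which was 58.9% and 60.6%. The 27 genes at the ceiling and the other 58 lay on opposite sides of these medians of all transcripts, with a UUU bias of 42.9% and 49.2%, an AAA bias of 31.6% and 37.7%, and a GC share of 62.9% and 55.5%. The rank correlation with UUU bias was -0.15 in OPCs and -0.23 in OLs for the secretory genes (0.02 and -0.16 across 8068 transcripts), and with AAA bias -0.09 and -0.15 (-0.01 and -0.20 across 8090 transcripts).

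**Figure D5:**
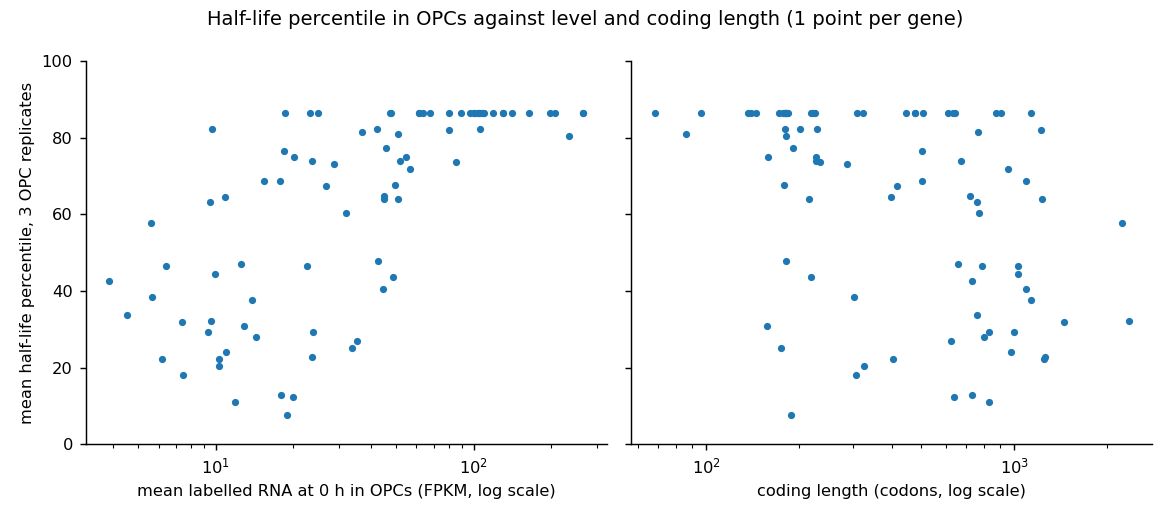
Mean half-life percentile in OPCs (y axis, 3 replicates) of the 85 secretory genes against the mean level of labelled RNA at 0 h in OPCs (left, FPKM, log scale) and coding length (right, codons, log scale), with 1 point per gene. Percentiles are higher at high levels (rank correlation 0.76) and lower at long coding lengths (rank correlation -0.44).

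Secretory genes that the name pattern leaves out were taken from lists of 72 genes, of which 69 were listed in a table and 67 were tested between the cell types. None passed the half-life test (limma). At 0 h 4 (5.97%) were higher in OLs, beside 13.8% of all transcripts, and 10 (14.9%) were lower, beside 15.8%. At the ceiling in all 5 replicates were 19 (28.4%), beside 16.1%. In OPCs 47 (70.1%) fell, beside 81.7%, and 4 (5.97%) rose, beside 4.31%, whereas in OLs 41 of 69 (59.4%) fell, beside 68.4%, and none rose. The slope was shallower in OLs for 11 (16.4%), beside 32.1%, and steeper for 1, Hsp90b1, beside 0.391%. Of 13 listed translocation and N-glycosylation genes 8 were at the ceiling throughout and 3 were lower in OLs (Tram1, Ddost and Stt3b), with none higher. Ddost, which holds the oligosaccharyltransferase together with Rpn1 and Rpn2, had 210, 142 and 165 FPKM in OPCs and 106 and 95.3 FPKM in OLs (-0.75 ± 0.24). Of 15 ER folding genes 6 were at the ceiling, P4hb, Txndc5, Erp29 and Creld2 were lower in OLs, and Erp44 was higher.

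Of 14 listed genes for COPII and cargo 4 were at the ceiling, and Ergic1 and Kdelr2, a receptor that returns ER residents, were lower in OLs. Of 9 COPI and ARF regulators, which include the exchange factor Gbf1 and the activating protein Arfgap1, 1 was at the ceiling, all 9 fell in OPCs and 5 declined less steeply in OLs. Arcn1, the COPI subunit outside the pattern, had 1.89, 2.08 and 4.54 h in OPCs and 3.03 and 5.38 h in OLs, whereas 4 of the 6 COPI genes above were at the ceiling in every replicate. Of 10 genes of Golgi tethers and related proteins none was at the ceiling, Gcc1 and Trip11 were higher and Golph3 lower in OLs, and Golph3 alone declined less steeply in OLs. Of 8 listed ER stress sensors and factors none was at the ceiling in all replicates, Atf6 was higher in OLs, and 7 fell in OPCs and 6 in OLs. Xbp1, a transcription factor of the ER stress response, had 0.797, 1.06 and 1.34 h in OPCs and 1.51 and 2.22 h in OLs.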

How the data were processed

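The authors clipped adapters, aligned reads to GRCm38 with HISAT2 2.1.0, and tabulated FPKM with StringTie 1.3.5 and ballgown over canonical coding transcripts of GENCODE vM9. The deposited FPKM were scaled by the authors to labelled spike-in RNA after 0 h, and 0 h columns were read as unscaled. Transcripts under 1 FPKM at 0 h, or at 0 at 1 and 2 h, were removed by the authors. The authors fitted half-lives (h) by least absolute deviations, with a 6 h ceiling. Read depth is unknown, so no counting error is given.

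Members and lists were chosen with earlier results of these data known. All tests used limma (3.58.1, R 4.3.3, plain eBayes, two-sided) over every transcript, with a Benjamini-Hochberg adjusted threshold of 0.05 and a pseudocount of 1 FPKM. Half-lives and 0 h levels were fitted on cell type, and slopes on chase time with a term for each replicate, as half-lives were fitted per replicate. Fits were tested on simulated data with independent normal noise. Those data held no 6 h ceiling, no tied half-lives and no error shared within a library. Named genes were those called for half-life (at most 12), at 0 h (8 in each direction) and for the difference in slope (4 in each direction), the 3 most negative and 3 most positive slopes in each cell type, the highest 0 h level in each role, and the 5 highest and 5 lowest percentiles. The 5 highest could not be chosen among 27 genes tied at the ceiling. Other genes were named after their values were seen, as examples or to complete a count. Coding lengths and coordinates came from GENCODE M21 (GRCm38) by transcript identifier (all 88 members). No pair of replicates shared more than 0.0117% of its values, so all counted as separate. Protein sequences were not used here, and the results of some single marker genes are not reported here.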

Additional observations from a re-analysis of the deposited data

Results flagged for a closer look

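The decline of labelled RNA differed between OPCs and OLs, by the interaction of chase time and cell type (limma on log2(FPKM + 1), adjusted over 8177 transcripts), for 23 secretory genes. Values are the OL slope minus the OPC slope per h. Among tethers, Trappc10 had 0.40, Trappc6b 0.34, Trappc11 0.33, Trappc12 0.25 and Trappc13 0.23. The COG genes Cog2, Cog4, Cog8 and Cog1 had 0.47, 0.36, 0.32 and 0.32, and the golgins Golga2 and Golga1 had 0.31 and 0.20. Among COPII genes, Sec24c had 0.39, Sec23b 0.38, Sec31a 0.34 and Sec16a 0.20. At the ER, Srp68 had 0.55, Sec62 0.30, Sec11a 0.26 and Sec11c 0.25. Arf2 had 0.35 and Sec14l1 0.30. Pdia4 had -0.16 and Pdia3 -0.18, against the direction of the others. The median over all transcripts was 0.14. The 23 were 21 of 86 shallower in OLs (24.4%, beside 32.1% of all transcripts) and 2 steeper (2.33%, beside 0.391%). After centring 2 genes were shallower (2.33%, beside 4.17% of all) and 33 steeper (38.4%, beside 22.5%). The centred median over all transcripts was -0.07.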

How the results depend on the processing

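For half-life, 0 secretory genes were longer in OLs after centring, without the 6 h libraries, below the ceiling only (24 genes tested) or with the replicate block. Leaving out single OPC replicates gave 1 to 2 longer and 0 shorter. The log2 difference of Golga1 turned to -0.23 after centring and -0.12 without the 6 h libraries. The median of all transcripts was -0.53 and 0.23 in these fits. At 0 h the replicate block gave 9 higher and 4 lower genes, and leaving out single OPC replicates gave 1 to 13 and 1 to 8. Which OPC numbers the OL numbers match is not given in the sources used here, and the values did not settle it: the OPC difference between replicates 1 and 2 correlated with that of OLs at -0.06 for half-life and 0.04 at 0 h. In OPCs centring turned 58 falling and 5 rising genes into 9 and 47; 2 rose without the 6 h libraries, and 1 to 5 without single replicates. In OLs centring gave 5 falling and 44 rising genes, and 25 fell without the 6 h libraries. The OL slope of Trappc2l (0.05) ranged from -0.014 without OL replicate 1 to 0.12 without OL replicate 2. For the difference in slope, centring gave 2 shallower and 33 steeper genes, the 6 h libraries left out gave 12 and 1, single replicates left out gave 3 to 25 and 0 to 2, and no replicate block gave 19 and 1. Centring left the median slope of all transcripts at 0.06 per h in OPCs and 0.03 per h in OLs. It left their median difference in slope at -0.07 per h. At the ceiling were 16 genes without the 6 h libraries, an alternative chosen after seeing the data. Pseudocount, expression minimum and variance trend left these counts within 1.5 times. Of 338 values of single named genes, 252 kept direction and side of the threshold, 80 no longer passed, 3 newly passed and 3 turned. Read depth is unknown, and the share of genes at 0 in late OPC libraries limits what steep slopes can show.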
